A study of Mus musculus with 8 samples.

Results

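The glucocorticoid axis was described in thoracic perivascular fat, which wraps the aorta in the chest, through 10 genes: the receptors Nr3c1 and Nr3c2, the corticosteroid-regenerating enzyme Hsd11b1, and Fkbp5, Tsc22d3, Zbtb16, Sgk1, Mt1, Mt2 and Hif3a, which are known glucocorticoid-responsive genes. The genes are named one by one for their part in this axis, and each was represented by the probe set that the platform annotation gives to that symbol alone. All 10 of 10 were found among 18782 genes with a probe set of their own, and each had 1 such probe set.

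RNA came from 4 samples labelled RictoraP2KO and from 4 control samples labelled Rictorfl/fl, with 1 array per sample. The mice of both groups were male, 17 to 22 weeks old, untreated, fasted overnight and killed at 9 am, so fasting and the hour are shared by all arrays. RictoraP2KO denotes loss of Rictor, the defining subunit of mTOR complex 2, through Cre recombinase driven by the aP2 (Fabp4) promoter, and the series title places the deletion in brain as well as fat, so effects within the fat and effects from elsewhere in the animal cannot be told apart. Controls carry the floxed alleles.

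Corticosterone, the main glucocorticoid of mice, binds the glucocorticoid receptor in the cytoplasm. There the receptor is held by the HSP90 chaperones and by immunophilins such as FKBP5. The bound receptor moves to the nucleus, attaches to palindromic glucocorticoid response elements and raises transcription of its target genes, among them Fkbp5 itself, which lowers the receptor's affinity for hormone. In fat, the enzyme encoded by Hsd11b1 regenerates active hormone inside the cell, and the mineralocorticoid receptor also binds glucocorticoids. SGK1 is in addition a kinase that mTOR complex 2 phosphorylates and activates, which links this axis to the deleted gene.

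Sequences are shown where they bear on genes described together, taken from RefSeq promoter windows (assembly GRCm38.p6) that run from 250 bases before to 50 after each annotated start. Of the 10 genes, 8 had at least 1 window. The full glucocorticoid response element was searched as AGAACA followed, after any 3 bases, by its reverse complement TGTTCT, so that both strands give the same matches. It was found in 1 of the 6 Sgk1 windows and in none of the windows of the other 7 genes. It occurred in 3 of all 32851 windows, or 0.00913%. The 250 bases before that Sgk1 start are shown with the element in capitals, chr10:21993640-21993889 on the plus strand; the first base of the element lies at position -189 relative to the start.
Sgk1: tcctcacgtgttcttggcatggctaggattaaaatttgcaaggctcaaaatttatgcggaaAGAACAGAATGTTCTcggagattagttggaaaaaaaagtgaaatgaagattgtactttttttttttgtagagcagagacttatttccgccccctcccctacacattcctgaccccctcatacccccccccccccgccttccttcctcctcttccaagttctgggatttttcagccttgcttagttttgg

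Mt1 and Mt2 are neighbouring genes for metallothioneins, small zinc-binding proteins that also respond to zinc through metal response elements. For these elements the letters TGCACNC and TGCGCNC were searched on both strands. The Mt2 window held 4 matches and the Mt1 window 3, where 25.7% of all windows held at least 1 and 1.97% at least 3. The 250 bases before each start are shown with these matches in capitals, chr8:94172368-94172617 for Mt2 and chr8:94178839-94179088 for Mt1, both on the plus strand. They hold 3 of the Mt2 matches and 1 of the Mt1 matches, and the rest lie after the annotated start.
Mt2: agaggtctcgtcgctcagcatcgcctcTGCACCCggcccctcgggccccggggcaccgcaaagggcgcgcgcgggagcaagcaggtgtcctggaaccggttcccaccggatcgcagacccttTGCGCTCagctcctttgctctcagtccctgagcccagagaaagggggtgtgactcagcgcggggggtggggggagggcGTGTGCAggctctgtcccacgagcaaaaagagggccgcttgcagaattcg
Mt1: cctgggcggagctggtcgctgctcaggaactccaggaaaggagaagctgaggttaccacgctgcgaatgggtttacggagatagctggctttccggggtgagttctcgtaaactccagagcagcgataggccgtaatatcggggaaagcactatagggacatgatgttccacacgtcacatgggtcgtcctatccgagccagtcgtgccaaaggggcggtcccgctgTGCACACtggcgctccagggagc
A match is a description of letters. Neither the full element nor AGAACA alone, on either strand, was found in the windows of Mt1, Mt2, Fkbp5, Hsd11b1, Hif3a or Nr3c2, which says only that these letters are not in these windows; AGAACA alone occurred in 19% of all windows.

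The labelled tissue was checked through its markers. Adipocyte genes (Adipoq 10.95, Fabp4 11.71, on the log2 scale over the 8 arrays) and brown fat genes (Ucp1 11.71, Cidea 10.83) gave high signals, and 8 of 9 and 8 of 8 measured markers lay above the median of all values, 3.76. Markers of other tissues were uneven: lung epithelial genes averaged 2.98 above their own mean in control replicate 2, neuron genes 1.19 in control replicate 3 and skeletal muscle genes 1.25 in RictoraP2KO replicate 2, while the remaining arrays stood below 0 for each of these lists. Cardiac muscle genes, 5 of 6 of them above the median of all values, averaged 1.72 above their own mean in RictoraP2KO replicate 2 and 0.70 in control replicate 2, and were lowest in RictoraP2KO replicate 1 (-1.32) and control replicate 3 (-0.93). The Rictor signal did not show the label: it was 6.68 ± 0.08 in RictoraP2KO and 6.54 ± 0.06 in control arrays (SD, n = 4 each). The difference was 0.145, opposite to the label (interval 0.002 to 0.288; limma unadjusted p = 0.0479, adjusted p = 0.685), with 3 RictoraP2KO arrays above all controls. Which exons its probes cover was not examined, so directions below rest on the labels. Across all 28371 probe sets, 1 passed a limma adjusted p of 0.05, which is 0.00352%, and 2062 had an unadjusted p under 0.05, which is 7.27%.

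None of the 10 genes differed between the groups by the adjusted test. With limma, 0 of 10 passed an adjusted p of 0.05 against 0.00352% of all probe sets. In the same test 0 of 10 had an unadjusted p under 0.05, against 6.48% of all genes. Differences (RictoraP2KO minus control, log2) were above 0 for 8 genes and below 0 for 2, with a median of 0.13, where 8786 of all 18782 genes were above 0 and the median was -0.01. Values of RictoraP2KO and control arrays overlapped for all 10 genes, where 3.57% of all genes had no overlap. Because the samples are whole tissue, fewer cells of a type and less RNA per cell cannot be told apart. Precision is limited by the number of arrays. The labels do not say whether each sample is a separate animal, so a p-value here measures only how far these samples spread, which may be technical.

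**Figure D1:**
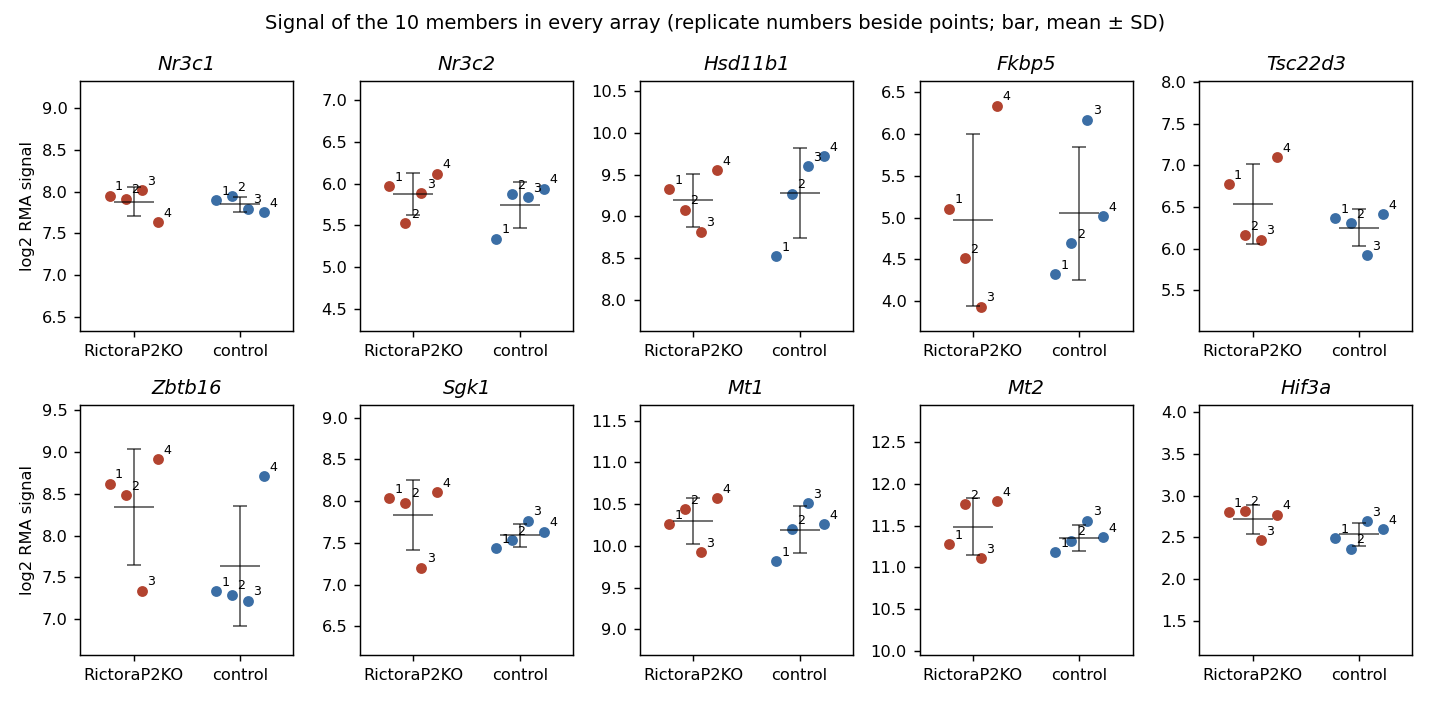
Log2 RMA signal (y axis, each panel spanning 3 log2 units) of the 10 genes in RictoraP2KO arrays (red, left) and control arrays (blue, right), with replicate numbers and the mean ± SD (n = 4). The groups overlap in every panel, and Fkbp5 and Zbtb16 spread widest.

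Of the receptors, Nr3c1 varied least across the arrays. Nr3c1, the glucocorticoid receptor, had signals of 7.95, 7.92, 8.02 and 7.63 in RictoraP2KO replicates 1 to 4, against 7.90, 7.95, 7.80 and 7.75 in control replicates 1 to 4. All 8 arrays lay within 0.39, the narrowest range of the 10 genes, and the lowest value belonged to RictoraP2KO replicate 4. The difference was 0.03 (SE 0.092; 95% interval -0.18 to 0.24; limma adjusted p = 0.959). Nr3c2, the mineralocorticoid receptor, had signals of 5.97, 5.53, 5.89 and 6.12 in RictoraP2KO replicates 1 to 4, against 5.34, 5.87, 5.84 and 5.94 in control replicates 1 to 4. Control replicate 1 was lowest and RictoraP2KO replicate 4 highest, a range of 0.78. The difference was 0.13 (SE 0.160; interval -0.23 to 0.49; limma adjusted p = 0.879), and -0.0054 without control replicate 1.

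Hsd11b1, whose enzyme turns inert 11-dehydrocorticosterone back into corticosterone, had signals of 9.33, 9.08, 8.82 and 9.56 in RictoraP2KO replicates 1 to 4, against 8.53, 9.27, 9.60 and 9.72 in control replicates 1 to 4. The highest and the lowest of the 8 values were both control arrays. The difference was -0.09 (SE 0.262; interval -0.68 to 0.51; limma adjusted p = 0.963). H6pd, which supplies NADPH to this enzyme, averaged 8.43 ± 0.11 in RictoraP2KO and 8.41 ± 0.14 in control arrays (SD, n = 4 each). Hsd11b2, the opposing enzyme of aldosterone target cells, was dim in both, at 2.79 ± 0.16 in RictoraP2KO and 2.85 ± 0.08 in control arrays (SD, n = 4 each), below the median of all values.

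Fkbp5, the immunophilin of the receptor's feedback loop, varied more between arrays than any other of the 10 genes. It had signals of 5.11, 4.51, 3.93 and 6.34 in RictoraP2KO replicates 1 to 4, against 4.32, 4.69, 6.17 and 5.02 in control replicates 1 to 4. The range over the 8 arrays was 2.41 log2 units, and each group held 1 array above 6 and 2 arrays below 5. The difference was -0.08 (SE 0.539; interval -1.30 to 1.15; limma adjusted p = 0.983), so a difference of 1 log2 unit in either direction lies within the interval. Its sign was not settled: the difference was 0.30 without control replicate 3, 0.27 without RictoraP2KO replicate 3 and -0.53 without RictoraP2KO replicate 4.

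Zbtb16 had the largest difference of the 10 genes, and it did not pass. It encodes PLZF, a zinc finger transcription factor induced by glucocorticoids in many cell types. Its signals were 8.62, 8.49, 7.34 and 8.92 in RictoraP2KO replicates 1 to 4, against 7.33, 7.29, 7.22 and 8.71 in control replicates 1 to 4. The arrays formed a high set (RictoraP2KO replicates 1, 2 and 4 and control replicate 4) and a low set (RictoraP2KO replicate 3 and control replicates 1, 2 and 3). The difference was 0.70 (SE 0.414; interval -0.24 to 1.64; limma adjusted p = 0.766). It was 1.06 without control replicate 4 (limma adjusted p = 0.779) and 1.04 without RictoraP2KO replicate 3 (limma adjusted p = 0.519), and 0.27 when RictoraP2KO replicate 2 and control replicates 2 and 3, the arrays with signal of other tissues, were left out.

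Tsc22d3 encodes GILZ, a leucine zipper protein that mediates part of the anti-inflammatory action of glucocorticoids. It had signals of 6.77, 6.16, 6.11 and 7.10 in RictoraP2KO replicates 1 to 4, against 6.36, 6.30, 5.92 and 6.41 in control replicates 1 to 4. RictoraP2KO replicates 1 and 4 lay above every control array and the other RictoraP2KO arrays within the control range. The difference was 0.28 (SE 0.223; interval -0.22 to 0.79; limma adjusted p = 0.812).

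Sgk1, the kinase downstream of mTOR complex 2 whose promoter is shown above, had signals of 8.04, 7.98, 7.20 and 8.11 in RictoraP2KO replicates 1 to 4, against 7.44, 7.53, 7.77 and 7.63 in control replicates 1 to 4. RictoraP2KO replicates 1, 2 and 4 lay above all 4 control arrays, and RictoraP2KO replicate 3 lay below all of them. The difference was 0.24 (SE 0.189; interval -0.19 to 0.67; limma adjusted p = 0.812). Without RictoraP2KO replicate 3 it was 0.45 (limma adjusted p = 0.384), and it still did not pass.

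Hif3a, a member of the hypoxia-inducible factor family that glucocorticoids induce, followed the same arrays at a low signal. It had 2.80, 2.82, 2.46 and 2.78 in RictoraP2KO replicates 1 to 4, against 2.49, 2.36, 2.69 and 2.60 in control replicates 1 to 4, all below the median of all values. Again RictoraP2KO replicates 1, 2 and 4 lay above every control array and replicate 3 did not. The difference was 0.18 (SE 0.102; interval -0.05 to 0.41; limma adjusted p = 0.754), and 0.26 without RictoraP2KO replicate 3 (limma adjusted p = 0.505).

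The metallothioneins had the smallest differences among the target genes that lay above 0. Mt1 had signals of 10.26, 10.44, 9.92 and 10.57 in RictoraP2KO replicates 1 to 4, against 9.82, 10.20, 10.51 and 10.26 in control replicates 1 to 4. Mt2 had signals of 11.28, 11.76, 11.11 and 11.79 in RictoraP2KO replicates 1 to 4, against 11.18, 11.32, 11.56 and 11.36 in control replicates 1 to 4. For both genes RictoraP2KO replicate 4 was highest, and RictoraP2KO replicate 3 and control replicate 1 were the lowest pair. The difference was 0.10 (SE 0.172; limma adjusted p = 0.919) for Mt1 and 0.13 (SE 0.162; limma adjusted p = 0.880) for Mt2. Intervals ran from -0.29 to 0.49 for Mt1 and from -0.24 to 0.50 for Mt2, and the Mt1 difference was -0.02 without control replicate 1.

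**Figure D2:**
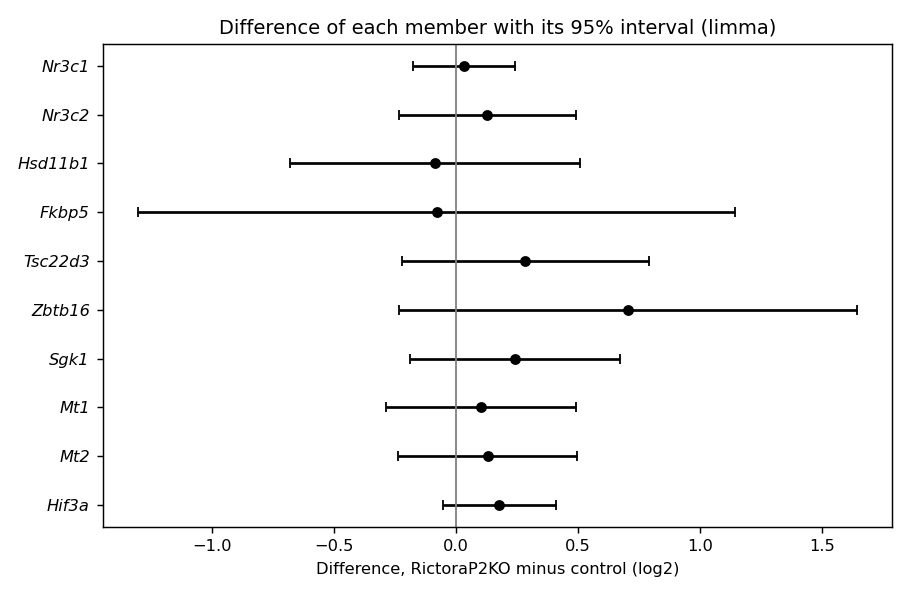
Difference between RictoraP2KO and control arrays (x axis, log2) for each of the 10 genes (y axis); points are the limma estimates and bars their 95% intervals (n = 4 arrays per group). Every interval holds 0, from the narrow one of Nr3c1 (-0.18 to 0.24) to the wide one of Fkbp5 (-1.30 to 1.15).

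The genes varied together from array to array, across both groups, although no single pair passed the adjusted test. Over the 8 arrays, Pearson correlations were above 0 for all 36 pairs among the 9 genes other than Nr3c1, with a median of 0.53, and below 0 for all 9 pairs of Nr3c1 with another gene, with a median of -0.52. The median over all gene pairs was 0.00. Not all of these signs held when 1 array was left out. The lowest r then reached was -0.36 for Tsc22d3 with Mt2 and -0.21 for Tsc22d3 with Mt1. In the same way r fell below 0 for Nr3c2 with Mt2 (-0.20), Hif3a (-0.11) and Mt1 (-0.0082), and for Fkbp5 with Tsc22d3 (-0.15). Nr3c1 with Tsc22d3 reached 0.14. The remaining pairs kept their sign. Of the 45 pairs, 11 had r of at least 0.7, which is 24.4%, where 3.42% of all gene pairs and 4.67% of pairs between brighter genes did, and 1 had r of at most -0.7, where 3.28% and 4.33% did (brighter genes are those at or above the median of all values). In an exact two-sided permutation test over all 40320 orderings, 11 of 45 pairs had an unadjusted p under 0.05 and 0 passed after adjustment over the 45 pairs (smallest adjusted p = 0.140). The pairs share the same 8 arrays and the same genes, so their counts are not independent.

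**Figure D3:**
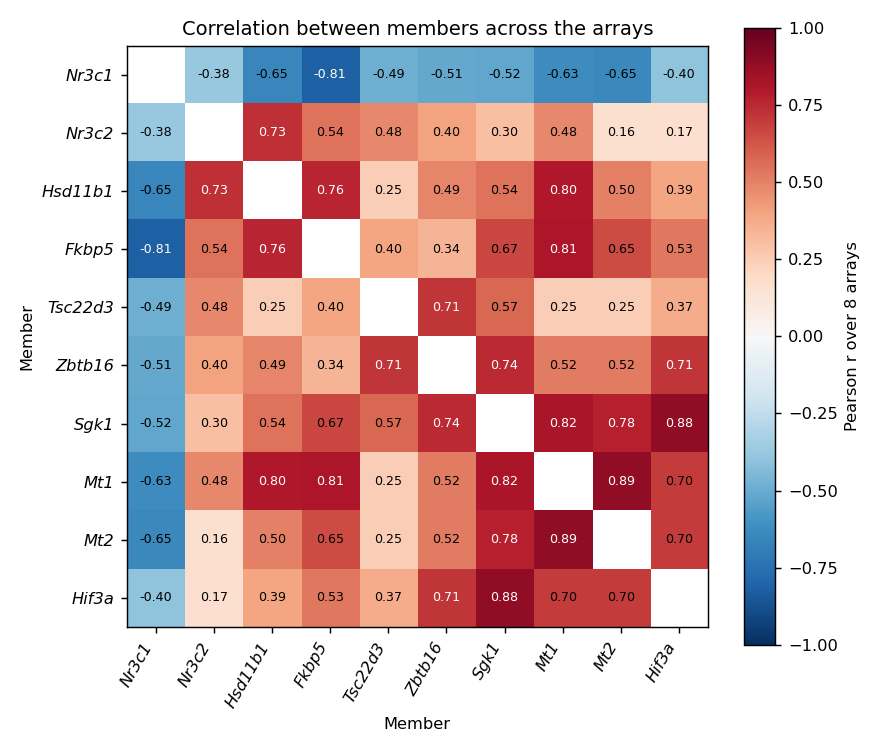
Pearson r over the 8 arrays for each pair of the 10 genes (both axes list the genes; colour and number give r). Every cell outside the Nr3c1 row and column is above 0, up to 0.89 for Mt1 with Mt2, and every Nr3c1 cell is below 0, down to -0.81 with Fkbp5.

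The closest pair was Mt1 and Mt2 (r = 0.89, exact permutation p = 0.00506, adjusted p = 0.140; rho = 0.91, exact permutation p = 0.00298, adjusted p = 0.134). Without the 2 arrays farthest from the Mt1 median, r was 0.89, and with each value centred on its group mean it was also 0.89. Sgk1 and Hif3a were next (r = 0.88, exact permutation p = 0.00620, adjusted p = 0.140; rho = 0.83, exact permutation p = 0.0154, adjusted p = 0.163), with r = 0.92 without the 2 arrays farthest from the Sgk1 median. Both pairs thus kept their correlation without the extreme arrays, and the Hif3a values span only 0.46 log2 units.

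Sgk1 also varied with both metallothioneins. For Sgk1 and Mt1 r was 0.82 (exact permutation p = 0.0143, adjusted p = 0.142; rho = 0.85), and 0.67 without the 2 arrays farthest from the Sgk1 median. For Sgk1 and Mt2 r was 0.78 (exact permutation p = 0.0264, adjusted p = 0.170; rho = 0.76), 0.56 without the same 2 arrays and 0.98 without RictoraP2KO replicate 1 (exact permutation p = 0.000198, adjusted p = 0.00893), the smallest p that 7 arrays can give. Fkbp5 and Mt1 had r = 0.81 (exact permutation p = 0.0188, adjusted p = 0.142; rho = 0.83), and 0.63 without the 2 arrays farthest from the Fkbp5 median. Fkbp5 and Mt2 had r = 0.65 (exact permutation p = 0.0822, adjusted p = 0.207; rho = 0.69), and 0.27 without the 2 arrays farthest from the Fkbp5 median. Over the omissions of 1 array r for this pair ran from 0.45 to 0.95, the highest without RictoraP2KO replicate 2 (exact permutation p = 0.000794, adjusted p = 0.0357).

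Nr3c1 ran against Fkbp5 (r = -0.81, exact permutation p = 0.0150, adjusted p = 0.142; rho = -0.62, exact permutation p = 0.115, adjusted p = 0.338). Of all other genes, 0.495% lay as far below 0 with Fkbp5 as Nr3c1 did. Without RictoraP2KO replicate 4 and control replicate 4, the arrays with the least Nr3c1 signal, r was -0.81. Without the same arrays, r of Nr3c1 was above 0 with Tsc22d3 (0.39), Nr3c2 (0.27) and Zbtb16 (0.19). With the other genes it stayed below 0. Over the 8 omissions of 1 array r of Nr3c1 with Fkbp5 ran from -0.87 to -0.67, within a range of Nr3c1 of only 0.39 log2 units.

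Hsd11b1 had r = 0.80 with Mt1 (exact permutation p = 0.0190, adjusted p = 0.142; rho = 0.68), r = 0.76 with Fkbp5 (exact permutation p = 0.0308, adjusted p = 0.173; rho = 0.81) and r = 0.73 with Nr3c2 (exact permutation p = 0.0408, adjusted p = 0.186; rho = 0.55). The pairs with Mt1 and Nr3c2 rested on 2 arrays each: r was 0.17 for Mt1 without RictoraP2KO replicate 3 and control replicate 1, and 0.26 for Nr3c2 without RictoraP2KO replicate 2 and control replicate 1. Over the omissions of 1 array these pairs had r from 0.63 to 0.90 for Mt1 and from 0.43 to 0.86 for Nr3c2. For Fkbp5 r was 0.64 without the 2 arrays farthest from the Hsd11b1 median. Zbtb16 had r = 0.74 with Sgk1 (exact permutation p = 0.0470, adjusted p = 0.189; rho = 0.55) and r = 0.71 with Tsc22d3 (exact permutation p = 0.0414, adjusted p = 0.186; rho = 0.79). Without the 2 arrays farthest from the median of the first gene these were 0.80 for Zbtb16 and Sgk1 and 0.40 for Tsc22d3 and Zbtb16.

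**Figure D4:**
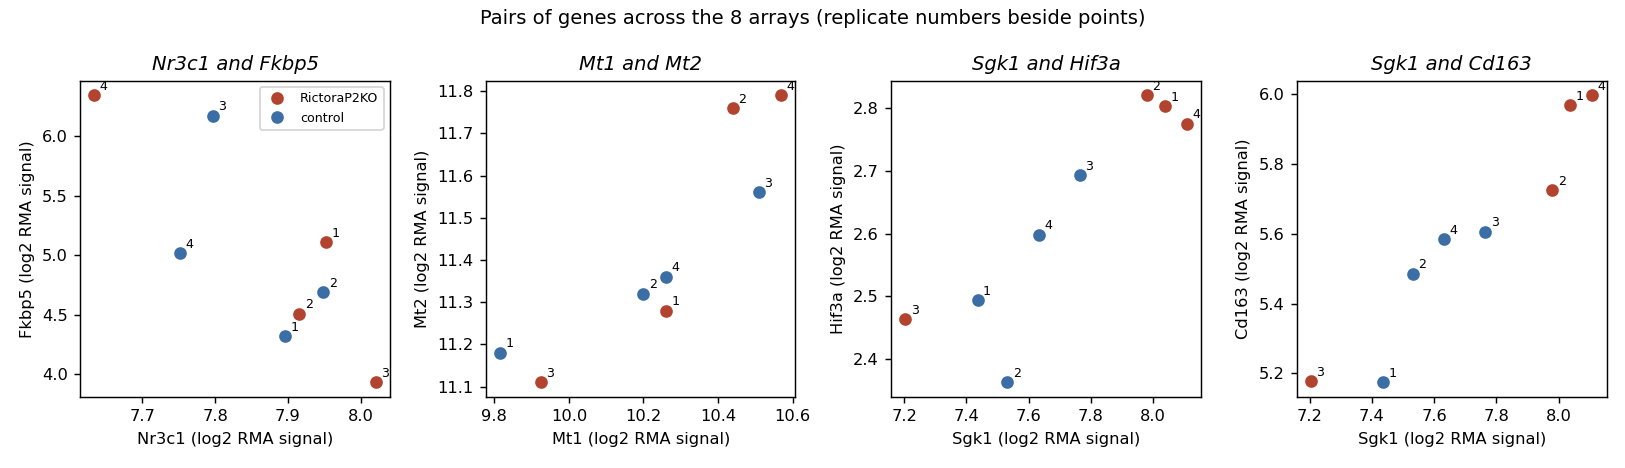
Log2 RMA signals of 4 pairs of genes in the 8 arrays (RictoraP2KO red, control blue, replicate numbers beside the points). Fkbp5 is high where Nr3c1 is low, Mt2 follows Mt1, and Hif3a and Cd163 follow Sgk1, with arrays of both groups along each trend.

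The arrays that were high or low were not the arrays of 1 group. In RictoraP2KO replicate 4 all 9 genes other than Nr3c1 lay above their own mean over the 8 arrays, and in RictoraP2KO replicate 1 8 of 9 did. In RictoraP2KO replicate 3 only Nr3c2 did, and in control replicate 1 none did. The other arrays lay between, with 5 genes above their mean in RictoraP2KO replicate 2, 2 in control replicate 2, 7 in control replicate 3 and 6 in control replicate 4. Nr3c1 was farthest below its own mean in RictoraP2KO replicate 4 (-0.23) and farthest above it in RictoraP2KO replicate 3 (0.16).

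Other glucocorticoid target genes, from a list of 31 that were all measured, were set against the 10 array by array. With Fkbp5, 7 of the 31 had r of at least 0.7, which is 22.6%, where 2.33% of all other genes did. With Sgk1 9 of 31 did (29.0%, against 3.1% of all other genes), with Zbtb16 and with Hsd11b1 6 of 31 each (19.4%, against 2.81% and 3.27%), with Hif3a 7 of 31 (22.6%, against 2.99%) and with Tsc22d3 3 of 31 (9.68%, against 2.29%). With Nr3c2 and with Mt2 5 of 31 each did (16.1%, against 3.8% and 3.18%), and with Mt1 4 of 31 (12.9%, against 2.84%). Not all targets moved with Fkbp5: 24 of 31 had r above 0 with it and 7 below 0. Among these, Pdk4 had r of at most -0.7 (1 of 31, 3.23%, against 2.2% of all other genes). For Nr3c2 and for Mt2 1 of 31 each did (3.23%, against 4.67% and 5.05%), and for the rest but Nr3c1 0 did. With Nr3c1 0 of 31 had r of at least 0.7 (against 2.1%), 25 had r below 0 and 4 had r of at most -0.7 (12.9%, against 1.94% of all other genes). The shares of all other genes include dim genes, and shares among brighter genes, which were higher for gene pairs above, were not counted here. Of the 310 relations between these 31 genes and the 10, 57 had an unadjusted exact permutation p under 0.05 and 1 passed after adjustment.

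The 7 genes with r of at least 0.7 to Fkbp5 come from the list of 31, so that they are known targets follows from the list. Genes outside the lists lay closer to Fkbp5 and are given below. Nfkbia, which encodes the NF-kappaB inhibitor, had r = 0.82 (exact permutation p = 0.00923, adjusted p = 0.179; rho = 0.79). Sult1a1, a sulfotransferase, had r = 0.79 (exact permutation p = 0.0193, adjusted p = 0.199; rho = 0.90). Per1, a clock gene with its own glucocorticoid response element, had r = 0.79 (exact permutation p = 0.0260, adjusted p = 0.221; rho = 0.74). These 3 kept r between 0.74 and 0.83 without the 2 arrays farthest from the Fkbp5 median. The others were Fam107a, Ddit4 (which restrains mTOR complex 1), Tat (tyrosine aminotransferase) and Klf9 (a Kruppel-like repressor), with r from 0.72 to 0.82. Fam107a rested on the extreme arrays, with r = 0.14 without them. Tat, which is also counted with Sgk1 above, was dim. Its signals ran from 2.155 to 2.494 over the arrays, below the median of all values. Klf9 was the farthest below 0 of the 31 genes with Nr3c1 (r = -0.89, exact permutation p = 0.00280, adjusted p = 0.149; rho = -0.83), and r was -0.60 without the 2 arrays farthest from the Nr3c1 median.

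The relation that passed was between Sgk1 and Cd163, a haemoglobin scavenger receptor of macrophages that glucocorticoids induce. Cd163 had signals of 5.97, 5.73, 5.18 and 5.996 in RictoraP2KO replicates 1 to 4, against 5.17, 5.49, 5.61 and 5.58 in control replicates 1 to 4, the same order of arrays as Sgk1 but for the lowest pair. Pearson's r was 0.96 (exact permutation p = 4.96e-05, adjusted p = 0.0154 over 310 relations; rho = 0.98, exact permutation p = 0.000397, adjusted p = 0.123). It was 0.92 without the 2 arrays farthest from the Sgk1 median and 0.95 with group means removed, where the adjusted p was 0.154. Without 1 array r stayed between 0.94 and 0.97, and the relation no longer passed in any of these 8 cases (adjusted p from 0.0615 to 0.358).

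Macrophage markers were among the cell type lists that moved with Sgk1. The 8 macrophage markers averaged 0.40, 0.27, -0.22 and 0.20 above their own mean in RictoraP2KO replicates 1 to 4, against 0.02, -0.32, -0.29 and -0.06 in control replicates 1 to 4, and 8 of 8 lay above the median of all values. Their mean had r = 0.73 with Sgk1 (exact permutation p = 0.0474), 0.77 with Hif3a (p = 0.0344 in the same exact permutation test), 0.78 with Zbtb16 (exact permutation p = 0.0466), 0.25 with Mt1 and 0.10 with Fkbp5. Their part in the results for Sgk1, Hif3a and Zbtb16 was not tested. B cell markers had r = 0.65 with Sgk1 (exact permutation p = 0.0709; rho = 0.81) and r = 0.68 with Mt2 (exact permutation p = 0.0474). They averaged 0.89 above their own mean in RictoraP2KO replicate 2 and at most 0.12 in any other array. Without the 2 arrays farthest from the median of Sgk1 or of Mt2, r was 0.69 with Sgk1 and 0.37 with Mt2. Over the 130 relations between 13 marker lists and the 10 genes, 5 had an unadjusted p under 0.05 and 0 passed after adjustment (exact permutation tests, smallest adjusted p = 0.985). The adrenal gland list had r = 0.73 to Hsd11b1 (exact permutation p = 0.0385). Of its 5 measured genes, 2 lay above the median of all values, Star at 4.06 and Mc2r at 5.66. Cyp11b1, Cyp11b2 and Cyp21a1 lay below it, at 2.63, 2.10 and 2.75.

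**Figure D5:**
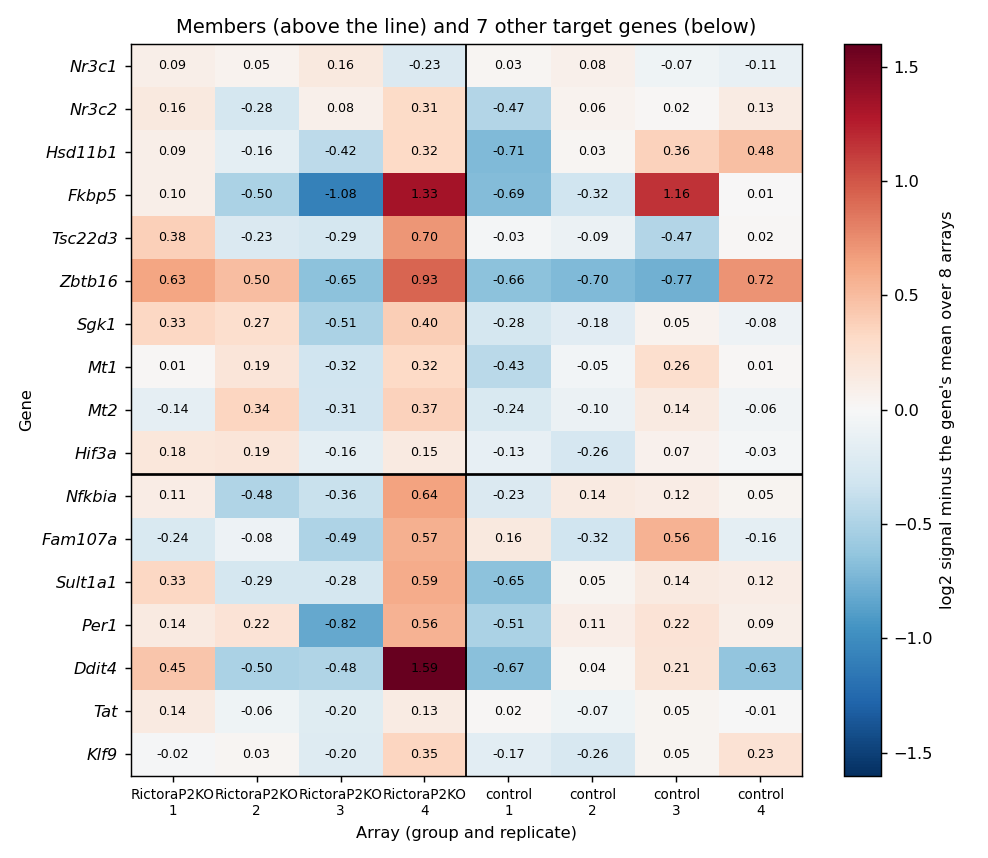
Log2 signal minus the gene's own mean over 8 arrays (colour and number) for the 10 genes (above the line) and the 7 targets with the highest r to Fkbp5 (below it), in RictoraP2KO replicates 1 to 4 (left) and control replicates 1 to 4 (right). RictoraP2KO replicate 4 is above the mean in every row but Nr3c1, and RictoraP2KO replicate 3 is below it in every row but Nr3c1 and Nr3c2.

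Among all 10058 brighter, named genes, the patterns most like those of the 10 (highest Pearson r over the 8 arrays, given without a test) were, except for Cd163 and Smtn (a smooth muscle marker), those of genes outside the lists used here. Closest to Fkbp5 were Galnt15 (0.98), Pawr (0.97) and Nuak2 (0.96). Closest to Sgk1 were Sypl (0.98), Cd163 (0.96) and P2rx7 (0.95), and closest to Mt1 were Slc7a8 (0.99), Polr2a (0.97) and Cyp2b10 (0.96). Slc7a8, an amino acid transporter, ranged from 5.45 to 8.84 over the arrays, and Cyp2b10, a cytochrome P450, from 6.09 to 10.34. Mt1 itself was 27th in likeness to Mt2, and Mt2 34th in likeness to Mt1. Closest to Hsd11b1 were Prodh (0.97), Cyp2e1 (0.95) and Nampt (0.95), closest to Mt2 Ccnl1 (0.95), Fcna (0.95) and Prkcd (0.92), and closest to Hif3a Suco (0.97), Tob1 (0.97) and Man1a (0.96). For Zbtb16 they were Rusc2, Smtn and Cpxm2 (all 0.94), for Tsc22d3 Ube2d1 (0.94), Sema6b (0.94) and Lrmda (0.93), for Nr3c2 Erap1 (0.98), Dpyd (0.97) and Xpr1 (0.96), and for Nr3c1 Slc35f5 (0.94), Glis2 (0.94) and Zc4h2 (0.93).

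Between the groups, the wider pathway showed no gene that passed. Of 82 measured genes of 7 lists, 0 passed a limma adjusted p of 0.05 and 5 had an unadjusted p under 0.05, 3 with a difference above 0 and 2 below 0. These 5 are 6.10%, where 6.48% of all genes had such a p. The 31 other targets had 17 differences above 0 and 14 below 0, with a median of 0.03. Cebpd, a C/EBP transcription factor of early fat cell differentiation, averaged 4.36 ± 0.32 in RictoraP2KO and 3.84 ± 0.16 in control arrays (SD, n = 4 each), a difference of 0.52 (SE 0.154; limma adjusted p = 0.649). Gadd45b, a stress response gene, had 5.28, 4.14, 4.15 and 3.87 in RictoraP2KO replicates 1 to 4, against 5.99, 6.19, 4.57 and 6.12 in control replicates 1 to 4. Control replicate 3 stood within the RictoraP2KO range and the other controls above it, with a difference of -1.36 (SE 0.412; limma adjusted p = 0.651). Irs2, a docking protein in insulin signalling, differed by 0.53 (SE 0.178) and Anxa1, the anti-inflammatory annexin, by 0.21 (SE 0.105).

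The proteins that carry the receptor had small differences of either sign. Of 11 measured chaperones and cochaperones, 3 had differences above 0 and 8 below 0, with a median of -0.04 and none with an unadjusted limma p under 0.05, and without control replicate 1 there were 6 above and 5 below. Hspa8, a constitutive HSP70, differed by -0.24 (SE 0.127), Stip1, which joins HSP70 to HSP90, by -0.16 (SE 0.089), Fkbp4, which replaces FKBP5 on the activated receptor, by -0.14 (SE 0.123) and Cdc37, an HSP90 cochaperone, by -0.07 (SE 0.062). Among 9 coregulators 7 were above 0 and 2 below, with a median of 0.01. Nrip1, a corepressor that nuclear receptors recruit, had no overlap between the groups, at 6.35 ± 0.14 in RictoraP2KO and 5.82 ± 0.12 in control arrays (SD, n = 4 each; difference 0.53, SE 0.090; limma adjusted p = 0.4997). The groups did not overlap for 3.57% of all genes. Ncoa1 differed by 0.09, Med1 by 0.05 (SE 0.100) and Ppargc1a by -0.15.

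For steroid metabolism and transport 3 of 8 were above 0 and 5 below, with a median of -0.06. Abcb1a, an efflux pump that exports corticosteroids, differed by -0.24 (SE 0.136), Pgrmc1 by -0.09, Cbr1 by 0.09 and Star by -0.05. All 9 genes of the mineralocorticoid response list were below 0, where 9996 of all 18782 genes were. Their median was -0.12, and none had an unadjusted limma p under 0.05. Scnn1a, Scnn1b, Scnn1g, Hsd11b2 and Kcnj1 among them were dim, with a mean over the arrays below the median of all values. Without control replicate 2, the array with lung epithelial markers 2.98 above their mean, 6 of the 9 were below 0. Orm1, an acute phase protein, differed by -0.51 (SE 0.269), Scnn1a, a subunit of the epithelial sodium channel, by -0.65 (SE 0.366), Nedd4l, the ligase that removes this channel, by -0.25 (SE 0.170) and Kcnj1 by -0.07. The channel genes were highest in control replicate 2. Scnn1a had 5.11 there against 3.33 to 3.52 in the other controls, and its difference without that array was -0.23. Without it the differences of Scnn1b and Scnn1g, the other subunits, were 0.04 and 0.17, against -0.12 and -0.17 with all arrays. The part of the lung signal in these values was not tested. Of the 8 metal response genes 5 were above 0 and 3 below, with a median of 0.07, and Mt3 differed by -0.11, Mt4 by -0.07, Slc30a2 by 0.10 and Slc30a10 by 0.08, all 4 dim.

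Paralogs of the 10 genes are given for comparison. Epas1, the hypoxia-inducible factor HIF-2 alpha and a relative of Hif3a, was lower in all 4 RictoraP2KO arrays than in any control array, at 9.57 ± 0.05 in RictoraP2KO and 9.75 ± 0.08 in control arrays (SD, n = 4 each; difference -0.17, SE 0.061; limma adjusted p = 0.660). Groups without overlap, in either direction, were found for 3.57% of all genes. Hif1a differed by 0.03. Sgk2 differed by 0.42 (SE 0.515) and Sgk3 by 0.03 (SE 0.076). In the Tsc22 family Tsc22d1 differed by 0.14, Tsc22d2 by 0.13 and Tsc22d4 by -0.06, and the progesterone receptor gene Pgr by -0.08 at a dim signal. Of 12 measured paralogs 5 were above 0 and 7 below 0, and none passed.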

How the data were processed

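RNA of thoracic perivascular fat was hybridised to 1 array per sample, from 5 µg of total RNA. The authors deposited log2 values of 28371 probe sets in 8 arrays, for which the submitters' processing notes name RMA and Affymetrix Power Tools 1.10.2. RMA corrects background, equalises the distributions of arrays and summarises probes. The deposited values had the same distribution in every array (no rank differed by more than 0.03), so a difference in total RNA output would not be seen. The array annotation gave 1 symbol for 21158 probe sets, several for 1881, and a gene was named only from the former kind; with more than 1 probe set, the one with the highest mean over the 8 arrays was used.

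RictoraP2KO was compared with control by limma 3.58.1 in R 4.3.3 (lmFit, eBayes, two-sided, no covariate, no filter), adjusted over all probe sets by Benjamini-Hochberg at a threshold of 0.05; the fit was tested on simulated data. Correlations over the 8 arrays were tested by exact two-sided permutation. The 10 genes and the lists were chosen with earlier results of these data known. Named genes were the 10, Rictor, their paralogs, up to 4 genes of each pathway list with the smallest unadjusted p and up to 3 genes most like each of the 10; H6pd, Klf9, the other target genes named for their correlation, and marker genes were named after their values were seen. Of 90 distinct genes in the pathway lists 82 were measured. Scan dates were not used here, and the depth of an array has no counterpart to read counts. Alternatives were a filter on dim probe sets, another quantile normalisation, median centring, limma-trend, array weights, a replicate block, the mean of a gene's probe sets, each array left out in turn and the omission of 3 arrays with signal of other tissues; for correlations, ranks and group-centred values. Alternatives for the relations with other target genes and for the signs within pathway lists were added after the values were seen.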

Additional observations from a re-analysis of the deposited data

Results flagged for a closer look

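In 3 of the 20 groups of 4 arrays examined (10 genes in each group), 1 array stood far from the other 3 by Dixon's criterion; chance alone marks about 1 in 20 such groups. Sgk1 in RictoraP2KO replicate 3 had a signal of 7.20, where the other RictoraP2KO arrays lay between 7.98 and 8.11. Hif3a in the same array had 2.46, where the others lay between 2.78 and 2.82. Zbtb16 in control replicate 4 had 8.71, where the other control arrays lay between 7.22 and 7.33.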

How the results depend on the processing

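None of the 10 genes and none of the pathway genes passed the adjusted test under any of the 16 alternatives in which they were tested. The number of probe sets called was 1, and 0 with the replicate number as a block, without dim probe sets (a filter that leaves fewer probe sets) and without the 3 arrays with signal of other tissues; it ran from 0 to 5 over the omissions of 1 array. The number of the 10 genes with an unadjusted p under 0.05 was 0, 1 with the replicate block (Zbtb16) and 0 to 3 over the omissions: 3 (Zbtb16, Sgk1 and Hif3a) without RictoraP2KO replicate 3 and 1 (Zbtb16) without control replicate 4. Arrays of the same replicate number were not more alike than others. Correlations of deviations from the group mean ran from -0.15 to 0.09 between arrays of the same number, and from -0.29 to 0.31 between arrays of different numbers. Such correlations cannot tell whether the samples were paired by design. Without the 3 arrays the differences of Hsd11b1 and Fkbp5 changed sign, to 0.11 and 0.46. Over the omissions of 1 array, differences ran from -0.014 to 0.11 for Nr3c1, from -0.0054 to 0.25 for Nr3c2, from -0.34 to 0.062 for Hsd11b1, from -0.53 to 0.30 for Fkbp5 and from -0.025 to 0.23 for Mt1, with a change of sign in each; the other 5 kept theirs. Correlated pairs after adjustment numbered 0, and 0 to 1 over the omissions; each of the 11 pairs with an unadjusted p under 0.05 kept its sign under all 12 alternatives. Relations with other targets numbered 1, and 0 with group-centred values, with ranks and over the omissions. Among the 82 pathway genes 41 kept the sign of their difference over all omissions and 41 did not; differences ran from -0.21 to 0.036 for Scnn1b and from -0.37 to 0.17 for Scnn1g, above 0 without control replicate 2. The cause was not tested. With 4 arrays per group, an interval as wide as that of Fkbp5 leaves differences of 1 log2 unit undetected.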
